A study of Homo sapiens with 12 samples.

Results

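To see where relative codon occupancy differs without THUMPD1, footprints of single ribosomes were compared between knockout (KO) and wild-type (WT) human embryonic kidney cells. All 61 sense codons and all 20 amino acids were covered. The comparison used every monosome library of the series, 8 of 12 libraries with 4 per genotype, and every codon listed for them. The remaining 4 libraries hold footprints of stacked ribosome pairs and were not used here. The labels name the line HEK293, and the methods name it HEK-293T. WT cells carried no deletion, and KO cells had been targeted in the coding part of THUMPD1 with CRISPR-Cas9 guides and sorted as single cells. The number of KO clones behind the 4 libraries is not given in the sources used here, so an effect of the deletion and a property of the chosen clone cannot be told apart. The study describes the libraries of a genotype as biological replicates, the labels do not say whether each came from its own culture, and p-values measure the spread between these libraries. Cells of both genotypes were lysed with cycloheximide, a drug that halts elongating ribosomes. The table holds codons and no genes, so loss of THUMPD1 was not checked here.

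A ribosome protects a short stretch of mRNA from nuclease, and the codon in its A site is the codon waiting for an aminoacyl-tRNA. When a tRNA is slow to arrive or to be accepted, footprints accumulate at its codons. The first 2 codon bases pair strictly with the anticodon, whereas the third base is read by the first anticodon base with some freedom, called wobble. A tRNA whose first anticodon base is G reads codons ending in C and in U. Inosine, an edited adenosine, takes that place in several other tRNAs and reads codons ending in U, C and A. Codons ending in A and in G are often read by separate tRNAs of the same amino acid. THUMPD1 brings the acetyltransferase NAT10 to the tRNAs for Leu and Ser, where N4-acetylcytidine is placed in the D-arm, at a distance from the anticodon. A comparison by amino acid therefore groups codons by the residue their tRNAs carry, and a comparison by the third base groups them by how the wobble position is read.

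Occupancy is the deposited relative value of a codon, a ratio with a mean between 0.981 and 1.00 in each library. It ranks codons within a library and gives no amount of translation, and codons that rise can push the rest down. Changes are given as KO minus WT on the log2 scale, and pairs are KO and WT libraries of the same replicate number. The standard deviation of log2 occupancy over the 61 codons lay between 0.26 and 0.41 in WT libraries and between 0.27 and 0.39 in KO libraries. The mean of this spread differed by 0.003 between genotypes (exact p = 0.943, permutation of the libraries, two-sided). In WT the geometric mean over synonyms was highest for Glu, at 1.76, followed by Trp at 1.42, Tyr at 1.40 and Asp at 1.32. It was lowest for Phe, at 0.711, Gln at 0.767 and Ile at 0.785. The most occupied codon of every library was GAA (Glu), between 2.12 and 2.57, and the least occupied was AUU (Ile) in all but KO replicate 3, where it was UUU (Phe). Among the 3 codons of highest mean occupancy, GAA, GAC (Asp) and UGG (Trp), the changes were -0.09, -0.07 and -0.03 with adjusted p from 0.812 to 1.00 (limma).

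Leu was the amino acid whose occupancy rose most in KO cells, among 8 of 20 that were higher in the mean. The mean log2 occupancy of its 6 codons was 0.29 higher in KO (SE 0.04, 95% confidence interval 0.196 to 0.394, limma adjusted p = 0.0021 over 20 amino acids), and it was the single amino acid past the threshold of 0.05, or 5% of those tested. As a geometric mean of occupancy, Leu was at 1.01, 0.992, 0.918 and 0.937 in WT replicates 1 to 4 and at 1.22, 1.21, 1.17 and 1.13 in KO replicates 1 to 4. The lowest KO library lay above the highest WT library, and the difference within pairs ran from 0.27 to 0.35. The level of Leu thereby moved from the middle of the 20 amino acids, rank 10 in WT with a geometric mean of 0.964, to 1.18 in KO. The libraries of the genotypes were fully separated for 2 of 20 amino acids, or 10%, and these were Leu and Cys. In 4 of 4 pairs, 2 of 20 amino acids were higher, Leu and Asn, the latter with a mean change of 0.02, and 5 were lower. With the replicate number as a block, 4 of 20 amino acids passed, or 20%, when Cys, Asp and Glu joined Leu, all 3 lower in KO. The block takes libraries of the same number as paired, which is an assumption. An exact test on 4 pairs, which was not run for amino acids, can give no p under 0.125.

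**Figure D1:**
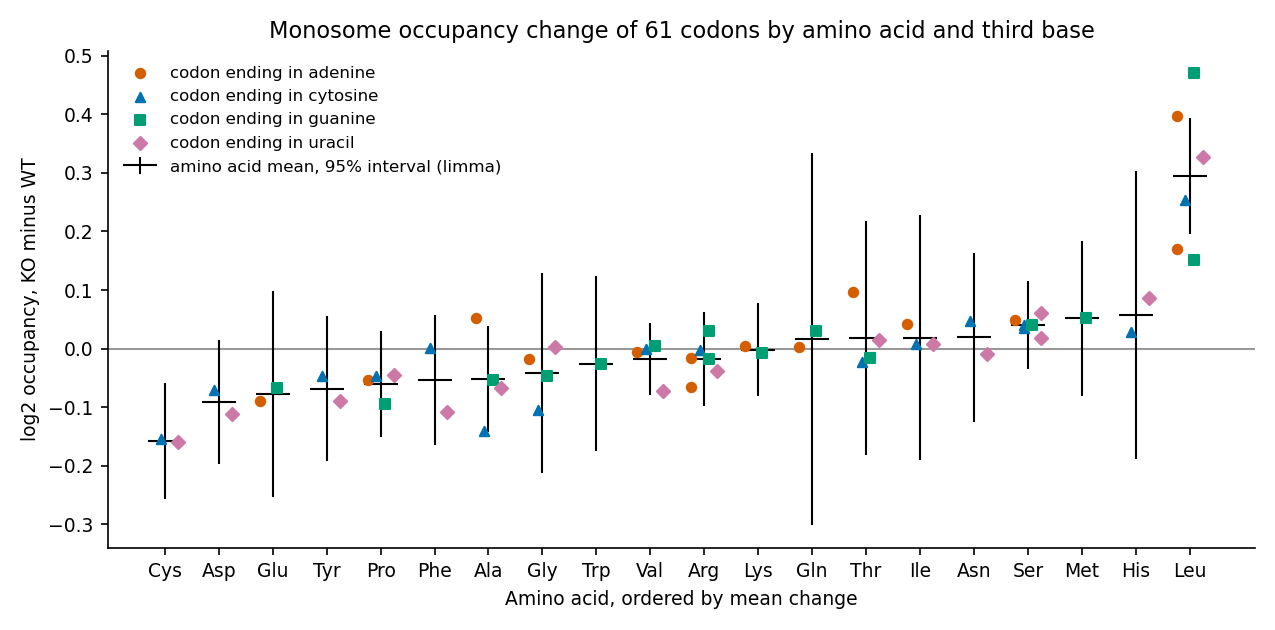
Log2 change in monosome occupancy, KO minus WT, for 61 codons grouped by amino acid, with 4 libraries per genotype. Points are single codons, coloured by the third base, and the marks are amino acid means with 95% confidence intervals from limma. All 6 Leu codons lie above 0, between 0.15 and 0.47, and the highest other codon, ACA, is at 0.097.

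All 6 Leu codons were higher in 4 of 4 pairs, and their changes ran from 0.15 to 0.47. Over all codons, 8 of 61 were higher in 4 of 4 pairs and 13 were lower in 4 of 4. Of 61 codons, 4 passed the threshold with higher occupancy (limma, 6.56% of codons) and none passed with lower occupancy, while an unadjusted p under 0.05 was reached by 5 higher and 3 lower codons. All 4 were Leu codons, and each ended in a different base. UUG, the Leu codon ending in G that passed, was at 1.06, 1.08, 0.991 and 0.952 in WT replicates 1 to 4 and at 1.51, 1.51, 1.37 and 1.27 in KO replicates 1 to 4. CUA was at 1.28, 1.15, 1.06 and 1.07 in WT and at 1.61, 1.57, 1.47 and 1.34 in KO. The gap between the genotypes was wide for UUG and narrow for CUA, whose highest WT library came within a small distance of its lowest KO library. CUU was at 0.902, 0.881, 0.821 and 0.860 in WT and at 1.06, 1.11, 1.13 and 1.04 in KO. CUC was at 0.933, 0.902, 0.925 and 0.922 in WT and at 1.16, 1.13, 1.02 and 1.08 in KO. Both codons of this pair, which share a tRNA with inosine at the wobble position, were separated between the genotypes, and the WT libraries of CUC lay close together. The changes were 0.47 for UUG, 0.40 for CUA, 0.33 for CUU and 0.25 for CUC, with limma adjusted p of 0.0024, 0.0098, 0.0024 and 0.0098. Without replicate 2 of both genotypes, whose libraries stood furthest from the others, the adjusted p of CUA and of CUC was 0.0503 each, and without WT replicate 4 that of CUA was 0.0504.

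The other Leu codons, UUA and CUG, overlapped between the genotypes. UUA was at 0.916, 0.885, 0.833 and 0.931 in WT and at 0.992, 0.887, 1.09 and 1.05 in KO, a change of 0.17 that was 0.39 in pair 3 and 0.003 in pair 2. CUG was at 1.03, 1.10, 0.903 and 0.901 in WT and at 1.10, 1.22, 1.01 and 1.03 in KO, a change of 0.15 that ran from 0.10 to 0.19 in the pairs. The adjusted p was 0.305 for UUA and 0.586 for CUG (limma), and with the replicate block it was 0.0535 and 0.0119. The block brought the codons past the threshold to 8 of 61, or 13.1%, and the codons it added to the 4 above were CUG, higher, and UGC, UGU and GCC, lower. Leaving out KO replicate 2 brought the change of CUG down to 0.0945.

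Cys codons had the most negative mean change of the 20 amino acids. The mean change of UGC and UGU was -0.16 (SE 0.04, 95% confidence interval -0.257 to -0.058), which did not pass over 20 amino acids (limma adjusted p = 0.0617) and passed with the replicate block (adjusted p = 8.0e-05). As a geometric mean, Cys was at 0.866, 0.892, 0.939 and 0.890 in WT replicates 1 to 4 and at 0.774, 0.770, 0.849 and 0.823 in KO replicates 1 to 4. The highest KO library lay below the lowest WT library by a narrow margin, and all 4 pairs were lower, by 0.11 to 0.21. UGC was at 0.839, 0.832, 0.854 and 0.846 in WT and at 0.726, 0.732, 0.798 and 0.774 in KO, without overlap. UGU was at 0.893, 0.956, 1.03 and 0.936 in WT and at 0.826, 0.811, 0.904 and 0.875 in KO, and here KO replicate 3 overlapped WT. The changes of the 2 codons, -0.16 each, differed by 0.005, although their WT levels were unlike, at 0.843 and 0.955. The limma adjusted p was 0.113 for UGC and 0.244 for UGU, and 0.0119 for each with the replicate block.

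**Figure D2:**
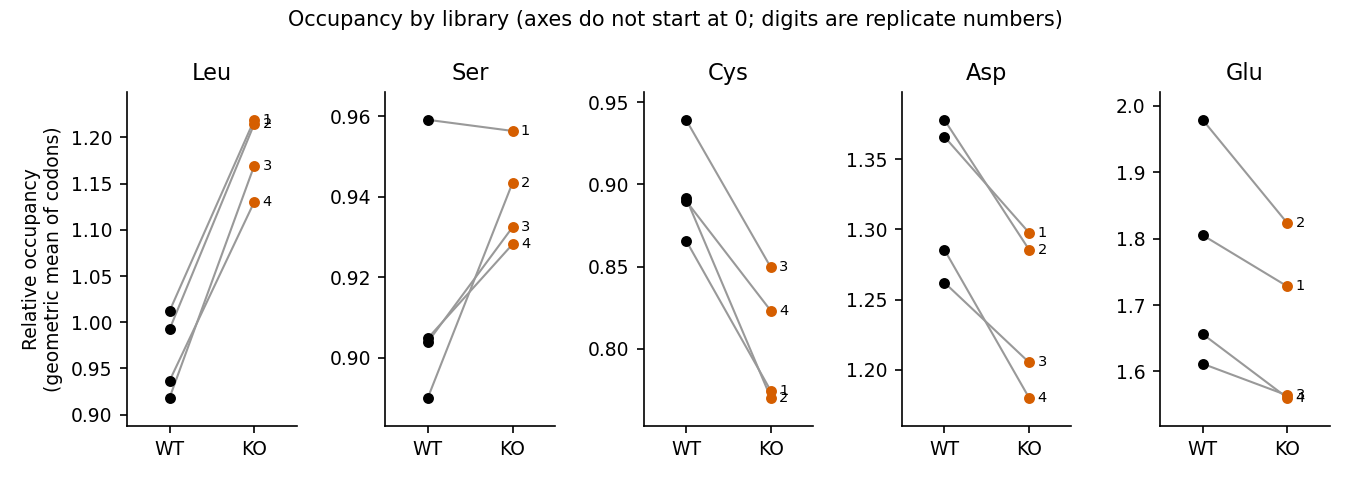
Geometric mean occupancy of the codons of Leu, Ser, Cys, Asp and Glu in 4 WT (black) and 4 KO (orange) libraries, with lines joining libraries of the same replicate number and axes that do not start at 0. Leu libraries run from 0.918 to 1.01 in WT and from 1.13 to 1.22 in KO, Cys libraries from 0.866 to 0.939 in WT and from 0.770 to 0.849 in KO, and the genotypes overlap for Ser, Asp and Glu.

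The acidic amino acids Asp and Glu, which have high occupancy in these cells, were also lower in every pair. Asp was at 1.37, 1.38, 1.26 and 1.29 in WT and at 1.30, 1.29, 1.21 and 1.18 in KO. Glu was at 1.81, 1.98, 1.61 and 1.66 in WT and at 1.73, 1.82, 1.56 and 1.56 in KO. In both, replicates 1 and 2 stood above replicates 3 and 4 in either genotype, and the genotypes overlapped. The change was -0.09 for Asp (limma adjusted p = 0.550, with the replicate block 0.0084) and -0.08 for Glu (limma adjusted p = 0.762, with the replicate block 0.0238). The size of the Glu change depended on which library was left out, and its sign did not. It was -0.0205 without WT replicate 2 and near -0.05 without KO replicate 3 or 4, against -0.12 without WT replicate 3 or KO replicate 2. Leaving out 1 library also leaves the replicate numbers unbalanced between the genotypes. Within pairs of the same replicate number, Glu was lower by 0.04 to 0.12. Of the Asp codons, GAU was at 1.17, 1.26, 1.18 and 1.21 in WT and at 1.10, 1.16, 1.12 and 1.08 in KO. It did not overlap between the genotypes, with a change of -0.11 (limma adjusted p = 0.305, with the block 0.0535). Libraries did not overlap for 6 of 61 codons, or 9.84%, namely the 4 Leu codons past the threshold, higher, and UGC and GAU, lower.

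The remaining 16 amino acids did not pass with or without the replicate block. Changes of the aromatic residues were -0.07 for Tyr, -0.05 for Phe and -0.03 for Trp. Within Phe the synonyms were unlike, at -0.11 for UUU and 0.002 for UUC. UUU was at 0.714, 0.735, 0.761 and 0.712 in WT and at 0.678, 0.640, 0.674 and 0.718 in KO, so that KO replicate 4 lay within the WT range. Among the small residues and Pro, the changes were -0.06 for Pro, -0.05 for Ala and -0.04 for Gly, with Pro and Ala lower in all 4 pairs. All 4 Pro codons were lower, from -0.10 for CCG to -0.05 for CCU. The Ala codons ran from -0.14 for GCC to 0.05 for GCA, the widest range of any amino acid but Leu. GCC was at 0.982, 1.10, 0.977 and 0.925 in WT and at 0.902, 0.968, 0.848 and 0.896 in KO, lower in every pair (limma adjusted p = 0.368, with the replicate block 0.0292), with a change of -0.0908 without WT replicate 2. The Gly codons ran from -0.11 for GGC to 0.003 for GGU.

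Val and Ile share a branched aliphatic side chain with Leu. Val changed by -0.02 (95% confidence interval -0.079 to 0.043) and Ile by 0.02 (-0.190 to 0.228), against 0.29 for Leu. Val codons ran from -0.07 for GUU to 0.005 for GUG, and Ile codons from 0.007 for AUC to 0.04. Val had the narrowest spread among libraries of all 20 amino acids, between 0.819 and 0.833 in WT and between 0.801 and 0.826 in KO. Met, with the single codon AUG, was at 0.921, 0.805, 0.894 and 0.931 in WT and at 0.889, 0.866, 0.969 and 0.955 in KO, a change of 0.05 (limma adjusted p = 0.796).

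Ser, the other residue whose tRNAs carry the acetylation, was at 0.959, 0.890, 0.904 and 0.905 in WT and at 0.956, 0.943, 0.932 and 0.928 in KO. All 6 Ser codons were higher on average, from 0.02 for UCU to 0.06 for AGU, and the mean change of 0.04 had a 95% confidence interval of -0.035 to 0.116 (limma adjusted p = 0.728). The upper end of this interval lay below the lower end of that of Leu, and the difference itself was not tested. Thr, which shares the hydroxyl group of Ser, changed by 0.02, and its codons ran from -0.02 for ACC to 0.10 for ACA. ACA was the codon with the largest spread between libraries, at 0.851, 0.596, 0.997 and 1.10 in WT and at 0.958, 0.760, 0.979 and 1.02 in KO. Replicate 2 was the lowest for ACA in both genotypes.

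The basic residues and the amides changed little in the mean. The values were 0.06 for His, -0.002 for Lys and -0.02 for Arg, and 0.02 for both Gln and Asn. Arg codons ran from -0.06 for CGA to 0.03 for AGG. For Gln the 95% confidence interval reached from -0.302 to 0.334, since WT replicate 2 was at 0.599 and WT replicate 3 at 0.897. For Lys it reached from -0.082 to 0.078. Within pairs of the same replicate number, the changes of Gln ran from -0.06 to 0.12, with 2 of 4 pairs in each direction.

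Over all codons 29 were higher and 32 lower in KO, with a median change of -0.002. Outside Leu, 23 were higher and 32 lower, the median was -0.009, and the largest change in either direction was 0.16, in UGU. The change was smaller than the pooled standard deviation between libraries of a genotype in 47 of 61 codons. It was larger in 14, of which 8 were among the 55 codons of other amino acids. The 6 Leu codons are 9.84% of the codons and held 74.0% of the summed squared change. Among the 18 amino acids with synonyms, 8 had codons in both directions, and the median range among synonyms was 0.053, against 0.32 within Leu.

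By the third base, no class of codons passed the test between the genotypes. The 14 codons ending in A changed by 0.04 in the mean (exact p = 0.486, two-sided permutation test over libraries). The 15 codons ending in G changed by 0.03 (exact p = 0.457), the 16 ending in C by -0.01 (exact p = 0.629) and the 16 ending in U by -0.01 (exact p = 0.657). The adjusted p over the 8 values of this kind tested together was 0.980 or more in each case, and 0.0286 is the smallest p that 4 against 4 libraries can give. A single value could therefore reach no adjusted p below 0.229 in this test, and at least 5 of the 8 would have had to be at the smallest p to pass. The same kind of test did not let Leu pass either (adjusted p = 0.286). The same values were therefore also compared by limma, an alternative added after seeing the data. The 95% confidence intervals of the change were -0.058 to 0.139 for A, -0.070 to 0.048 for C, -0.045 to 0.104 for G and -0.082 to 0.059 for U, with limma adjusted p of 0.986 each. With the replicate block the interval of A was 0.004 to 0.077 (limma adjusted p = 0.247), and those of the other classes included 0. Without WT replicate 2 the change of the A-ending class was 0.005, and without KO replicate 2 that of the G-ending class was 0.005. In mean log2 occupancy the codons ending in A were at 0.05, -0.08, 0.04 and 0.10 in WT replicates 1 to 4 and at 0.09, -0.04, 0.12 and 0.10 in KO replicates 1 to 4. They were higher in 4 of 4 pairs, and replicate 2 was the lowest in both genotypes. The codons ending in G were at 0.002, 0.07, -0.03 and -0.02 in WT and at -0.005, 0.11, 0.03 and 0.008 in KO. Replicate 2 was here the highest in both genotypes.

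**Figure D3:**
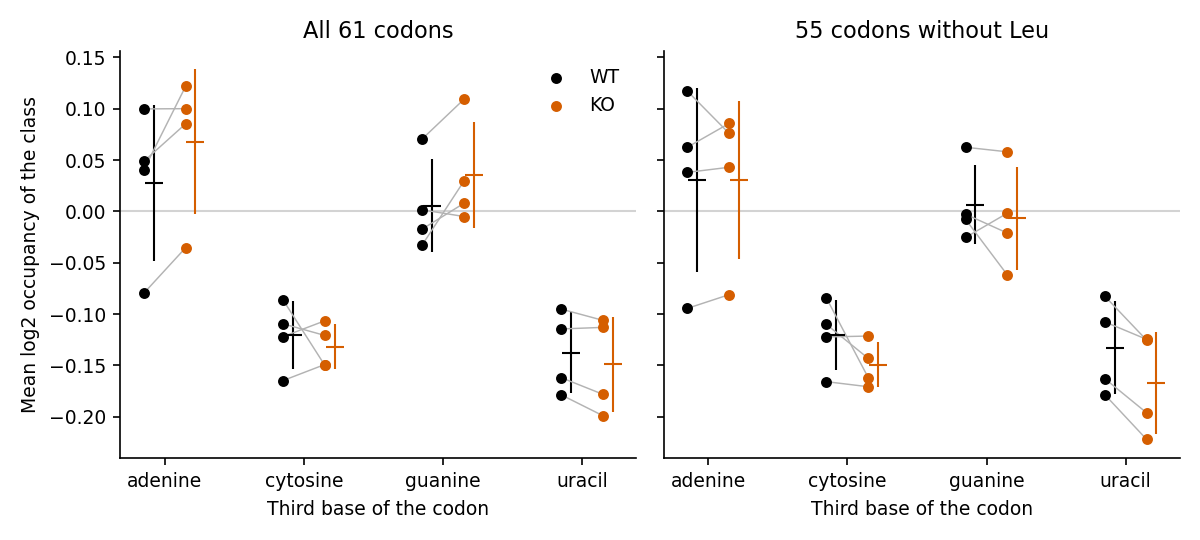
Mean log2 occupancy of the codons ending in each base in 4 WT and 4 KO libraries, over all 61 codons and over the 55 codons without Leu; lines join libraries of the same replicate number, and bars are means with standard deviations. The genotypes overlap in all 4 classes of both panels, and replicate 2 is lowest for codons ending in A and highest for codons ending in G in both genotypes.

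The codons ending in C were at -0.11, -0.16, -0.09 and -0.12 in WT and at -0.12, -0.15, -0.15 and -0.11 in KO. The codons ending in U were at -0.16, -0.18, -0.10 and -0.11 in WT and at -0.18, -0.20, -0.11 and -0.11 in KO. Both classes were below the other classes in mean level in each genotype. Each class held exactly 1 of the 4 codons past the threshold, and the balance of higher and lower codons was 8 to 6 for A, 7 to 9 for C, 7 to 8 for G and 7 to 9 for U. Without the Leu codons the class means were 0.000 for A, -0.03 for C, -0.01 for G and -0.03 for U, so the positive sign of the G-ending class rested on Leu, and that of the A-ending class turned to -0.004 when the Ser codons were left out as well. The exact p for these class means without Leu was from 0.229 to 1.

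Comparing synonyms that share their first 2 bases holds the amino acid constant. Over 16 such codon boxes, the log2 difference between the codon ending in C and the codon ending in U was 0.02 in WT and 0.02 in KO, and it changed by 0.001 (exact p = 1, two-sided permutation test). The change of this difference within the 4 pairs ran from -0.05 to 0.04. It was 0.008 in the 8 boxes read by tRNAs whose first anticodon base is G (exact p = 0.743) and -0.007 in the 8 boxes read by inosine (exact p = 0.857), values whose sign depended on the setting. Of the 16 boxes, 8 changed towards C and 8 towards U, from -0.11 in Gly to 0.11 in Phe, and the libraries overlapped between the genotypes in every box.

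Over the 13 boxes with codons ending in A and in G, the difference between them changed by 0.008 (exact p = 0.800), within pairs from -0.03 to 0.04. The level of this difference depended on the replicate, with 0.06, -0.15, 0.10 and 0.14 in WT replicates 1 to 4 and 0.10, -0.13, 0.10 and 0.10 in KO replicates 1 to 4. In replicate 2 of both genotypes the codons ending in G were the more occupied, and in all other libraries those ending in A. Of the 13 boxes 7 changed towards A and 6 towards G. The largest changes were in Leu and pointed in opposite directions, with 0.25 in the 4-codon box, where CUA rose more than CUG, and -0.30 in the 2-codon box, where UUG rose more than UUA. The exact p was 0.0286 in the 4-codon box, where the libraries did not overlap, and 0.0571 in the 2-codon box, both without adjustment over the boxes. Only 1 of the 13 boxes was without overlap, and 0.0286 is the smallest p that 4 against 4 libraries can give. All other boxes lay between -0.05 and 0.11.

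**Figure D4:**
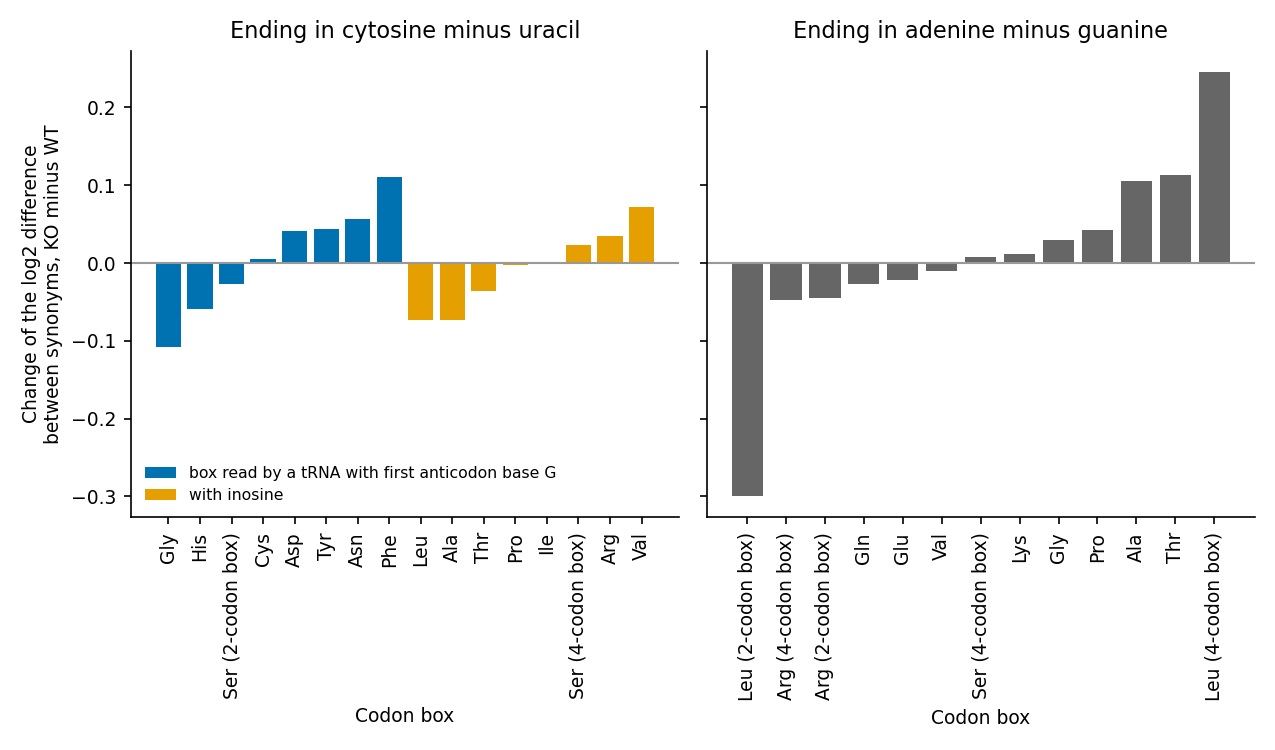
Change, KO minus WT, of the log2 occupancy difference between synonyms that share their first bases, for 16 boxes with codons ending in C and U and 13 boxes with codons ending in A and G. Bars are means over 4 libraries per genotype. The C minus U bars run from -0.11 to 0.11, and the A minus G bars of the 2 Leu boxes, 0.25 and -0.30, exceed all others.

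The sum of squares of the change over codons was split by codon property, as a description without a test since codons are not replicates. Grouping by amino acid took 82.8% of it, where an even spread over 20 groups would take 31.7%. Grouping by the third base took 4.1%, against 5.0% for an even spread. Without Leu, amino acids took 68.8% against 33.3%, and the third base 5.1% against 5.6%. In single pairs without Leu, amino acids took between 26.1% and 52.9% and the third base between 3.0% and 18.8%, the latter in pair 3. The first base took 23.2% without Leu, the second base 2.8%, and the number of G and C bases 10.8%. Over all 61 codons these shares were 11.6%, 24.9% and 10.2%. Of the codons starting with G, 13 of 16 were lower in KO, with a mean change of -0.05. They are all the codons of Ala, Asp, Glu, Gly and Val, so first base and amino acid cannot be told apart here. The 8 codons made only of G and C were all lower, with a mean of -0.06, and some of them start with G. For comparison, 32 of the 55 codons without Leu were lower. The counts for codons starting with G and for codons made only of G and C were singled out after the values were seen.

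Replicate number was the larger source of variation between these libraries. Over the 61 codons, genotype took 22.5% of the sum of squares between libraries, replicate number 67.2% and the rest 10.4%. With 1 and 3 of 7 degrees of freedom, even shares would be 14.3% and 42.9%. Genotype took 76.6% for the 6 Leu codons and 7.45% for the 55 others. By amino acid, genotype took 89.1% for Leu, 69.8% for Cys and 39.3% for Asp. It took 31.1% for both Val and Pro and 29.3% for Ser, and for Glu 11.7% beside 86.7% for replicate number. For Gln, Lys and Asn the replicate number took 96.4%, 89.2% and 98.4%. What the replicate number stands for is not given in the sources used here, and its part in the results was not tested beyond the block and the removal of replicates.

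**Figure D5:**
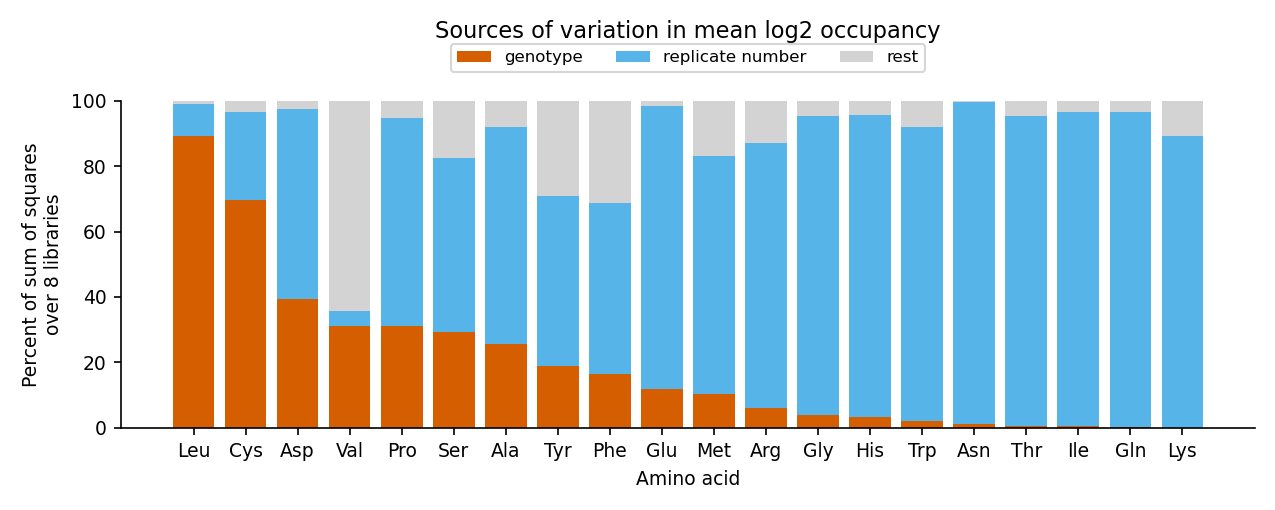
Share of the sum of squares of mean log2 occupancy over 8 monosome libraries that went to genotype, to replicate number and to the rest, for each of 20 amino acids. Genotype takes 89.1% for Leu and 69.8% for Cys, and less than replicate number for each other amino acid but Val, where most went to the rest.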

How the data were processed

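Ribosome footprints of monosome length were size selected after RNase I digestion. The authors mapped reads with STAR to UCSC transcripts and used custom scripts, and the submitters' processing notes name the hg19 assembly. The deposited values are relative codon occupancies, a linear ratio in 1 column per library. The study places them at the ribosomal A site, which the table does not name, and the baseline of the ratio, read-length filters and coverage minimums are not given in the sources used here. Because the values are relative, they could be moved by any of these choices. The depth is unknown, so no counting interval was computed and the spread between libraries is the only error. The table held 0 values at 0 and 0 stop codons, and all of its library columns were used. The disome table was not used here.

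Groups and replicate numbers came from the sample labels. Values were transformed to log2 with no pseudocount. Codons, and amino acids as the mean of their codons, were compared by limma's lmFit and eBayes (limma version 3.58.1, R version 4.3.3), adjusted by Benjamini-Hochberg over 61 codons and over 20 amino acids. Third-base classes and differences within codon boxes were compared by exact two-sided permutation tests over libraries, 8 values adjusted together. Which boxes are read by inosine was taken from textbook knowledge of human tRNAs. Other steps used Python version 3.11.15 and scipy version 1.17.1, and the calculations were tested on simulated data. These were drawn with independent noise in each library, without a shared replicate effect, and the fit with the block was not run on them. The members, groupings and tests were chosen with earlier results of these data known. Codons named were those past the threshold, those without overlap, the 5 highest and 5 lowest changes, the 3 highest and 3 lowest levels, the codons of Met and Trp, and the most and least changed synonyms of amino acids with 4 or more codons.

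Libraries with the same replicate number deviated together from their group means (r from 0.534 to 0.872 over codons in 4 pairs), so the numbers were taken to pair the libraries, and the fit with the replicate number as a block is given where it changes a call. Of the KO libraries 2 of 4 deviated most like the WT library of their own number, and of the WT libraries 3 of 4. WT replicate 3 deviated more like KO replicate 4 (r = 0.776) than like KO replicate 3 (r = 0.534), so pairing by number is an assumption. Alternatives were centring on the median, an equal spread in every library, quantile normalization, the linear scale, the 46 codons of highest occupancy, an exact permutation test per codon and per amino acid, a trended robust prior, the block, leaving out each library, leaving out Leu or Leu and Ser codons from the third-base values, and the median absolute deviation for the spread. Limma on the third-base values with and without the block, leaving out replicate 2 of both genotypes, and centring on the 55 codons other than Leu were added after seeing the data.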

Additional observations from a re-analysis of the deposited data

Results flagged for a closer look

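In 120 groups of 4 libraries (each of 31 named codons, 20 amino acids, 8 third-base values and the spread over codons, in each genotype), 5 held a library far from the other 3, where chance gives about 1 in 20 groups, or 6. His was at 0.968 in KO replicate 2 and between 1.15 and 1.19 in the other KO libraries. Pro was at 1.05 in WT replicate 2 and between 0.957 and 0.972 in the other WT libraries. The A minus G difference within boxes was -0.129 in KO replicate 2 and between 0.102 and 0.105 in the other KO libraries. The Pro codon CCG was at 1.28 in KO replicate 2 and between 1.04 and 1.07 in the others. The Ser codon UCU was at 0.865 in WT replicate 4 and between 0.928 and 0.938 in the others. Of these 5 values, 4 came from replicate 2, with 3 in KO and 1 in WT.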

How the results depend on the processing

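The count of codons past the threshold was 4 with median centring, quantile normalization, the linear scale, a trended robust prior, the 46 codons of highest occupancy and centring on the codons other than Leu, and the same 4 Leu codons passed each time. It was 5 with an equal spread, when UGC was added. Leaving out each library in turn gave 3 to 4, with CUA lost without WT replicate 4. Without replicate 2 of both genotypes it was 2, UUG and CUU. The exact permutation test per codon left 0 after adjustment, with 6 at an unadjusted p under 0.05 and a smallest adjusted p of 0.290, since 4 against 4 libraries cannot give an exact p under 0.0286.

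Under the replicate block, which takes libraries of the same number as paired, 8 codons and 4 amino acids passed. The block changed no other call among the codons and amino acids named, and with the block the smallest exact p for a third-base value was 0.125, the least that 4 pairs can give. Limma on the 8 third-base values passed none of them, with a smallest adjusted p of 0.986, and of 0.247 with the block.

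The count of amino acids, 1, was 2 with median centring (Cys added), 3 with an equal spread (Cys and Asp added), and 0 by the exact permutation test per amino acid, with 2 at an unadjusted p under 0.05 and a smallest adjusted p of 0.286. Leaving out each library gave 1 to 2, with Cys added without KO replicate 3. In the other fits without a single library, the limma adjusted p of Cys ran from 0.0701 to 0.208. For Cys it was 0.0846 on the linear scale and 0.162 with a trended robust prior. Amino acids were not refitted on quantiles or on the 46 most occupied codons. In the settings run for amino acids, Leu passed in all but the exact test, and its change ran from 0.271 to 0.318 when single libraries were left out. The adjusted p of Cys was 0.0558 with centring on the codons other than Leu and 0.227 without replicate 2 of both genotypes, an omission that, like this centring, was chosen after seeing the data.

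Values near 0 changed sign, and the cause was not tested. With an equal spread the changes were -0.0176 for GGU, -0.000493 for GUG, -0.00313 for UUC and -0.00250 for C minus U within boxes. Quantile normalization gave -0.00356 for AUC and -0.00708 for GGU. Median centring gave 0.00407 for Lys, and centring on the codons other than Leu gave 0.0182 for Lys, 0.00215 for Arg and 0.00201 for Val. The linear scale gave -1.99e-05 for C minus U and -0.00166 for A minus G. Without replicate 2 of both genotypes the values were -0.0430 for GGU, -0.0180 for Gln, -0.0102 for Thr, -0.0113 for C minus U and -0.00614 for C minus U in boxes read by a first anticodon base G. Without Leu they were -0.0133 for codons ending in G, 0.00262 for C minus U in inosine boxes and -0.0165 for the difference in spread over codons. Without Leu and Ser they were -0.00431 for codons ending in A and -0.0178 for codons ending in G.

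The mean change ran from 0.00488 to 0.0750 for codons ending in A and from 0.00526 to 0.0515 for codons ending in G when single libraries were left out. Leaving out single libraries changed the sign of 28 of 62 results at least once. The 62 include the counts of codons and of amino acids past the threshold, which cannot change sign. They also hold AUG and UGG a second time as Met and Trp. Such an omission leaves the replicate numbers unbalanced between the genotypes. Of the codons and amino acids listed here, GCA and Asn were higher in 4 of 4 pairs, and the others went in both directions. The ranges of the codons were -0.0811 to 0.214 for ACA, -0.0782 to 0.0231 for ACC, -0.000672 to 0.068 for AGG, -0.0679 to 0.085 for AUC, -0.0704 to 0.0796 for AUU and -0.188 to 0.00298 for CCG. For the others they were -0.032 to 0.107 for GCA, -0.0411 to 0.0563 for GGU, -0.038 to 0.0426 for GUG, -0.00999 to 0.0288 for UCU, -0.0661 to 0.0159 for UGG and -0.0399 to 0.0389 for UUC. The ranges of the amino acids were -0.0335 to 0.000995 for Arg, -0.0294 to 0.0618 for Asn, -0.102 to 0.101 for Gln, -0.110 to 0.00142 for Gly, -0.0426 to 0.128 for His, -0.0414 to 0.0967 for Ile, -0.0254 to 0.0135 for Lys, -0.0545 to 0.0719 for Thr and -0.0661 to 0.0159 for Trp. The ranges of the other values were -0.0257 to 0.000473 for codons ending in C, -0.0258 to 0.00515 for codons ending in U, -0.0128 to 0.0209 for C minus U, -0.0537 to 0.0661 for A minus G, -0.00517 to 0.0241 for C minus U with a first anticodon base G, -0.0285 to 0.0178 for C minus U with inosine and -0.021 to 0.0307 for the spread over codons. Read counts were not used here, so what depth limits is unknown. Changes whose sign turned when a library was left out have no settled sign. Some changes within the spread between libraries kept theirs, such as Glu, at -0.08 against a pooled standard deviation of 0.12.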
